A study of Sus scrofa with 6 samples.

Results

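The reference RNAs of this miRNA microarray were 5S ribosomal RNA, read by 4 probes (5S-1 to 5S-4), and the miRNAs miR-103, miR-107 and miR-191, read by 1 probe each. They were chosen by name, as RNAs in common use as normalizers for small RNA measurements, and make up 7 of the 326 probes examined, the others being pig miRNA probes. Left atrial (LA) RNA came from Large White pigs in a sham group and a paced group, with 3 arrays per group and 1 animal per array. Paced animals, which the labels call the PAF group (paroxysmal atrial fibrillation), received 3 right atrial bursts at 800 bpm through a catheter after esmolol, a beta-blocker, and LA tissue was taken 20 to 24 hours later. Sham animals were operated on without burst pacing, and whether they received esmolol is not given in the sources used here. The methods describe pigs of 3 months in groups of 5, whereas the labels describe neonatal piglets. The groups are small, and the paper describes the paced animals as free of earlier cardiovascular disease.

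A reference RNA is used to correct for the amount of RNA and the efficiency of labelling, so that its own level should not move with the treatment. 5S rRNA is a short RNA of the large ribosomal subunit, transcribed by RNA polymerase III, and was the normalizer of the miRNA qPCR in this study. miR-103 and miR-107 are made from introns of pantothenate kinase genes and belong to the group of miRNAs that share the AGCAGC motif near the 5′ end, while miR-191 is clustered with miR-425 and is expressed in many tissues. In RefSeq's annotation of the Sscrofa11.1 pig genome the 3 miRNAs matched 4 genes. MIR103-1 lay within PANK3, MIR103-2 within PANK2, MIR107 within PANK1, and MIR191, like MIR425, within DALRD3.

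The sequences that the 7 probes target are shown because 2 of them are almost identical and because the 5S probes read separate stretches of a single RNA. They are given 5′ to 3′ as listed in the array files, with the seed (bases 2 to 8) of each miRNA in capitals and, in 5S-1 and 5S-2, the run of 7 bases that both targets hold.
miR-103: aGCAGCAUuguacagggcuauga
miR-107: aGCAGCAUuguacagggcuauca
miR-191: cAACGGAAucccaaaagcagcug
5S-1: ugaacgcgcccGAUCUCGuc
5S-2: uGAUCUCGgaagcuaagcag
5S-3: ggucgggccugguuaguacu
5S-4: uggaugggagaccgccugggaau
Counted from the 5′ end, miR-107 differs from miR-103 by the substitution G22C alone, in a sequence of 23 bases. Their seed GCAGCAU was found in no other miRNA of the array, and neither was the seed AACGGAA of miR-191. The motif AGCAGC, searched on the target strand only, was present in 10 of the 322 miRNA targets (3.11%). In 9 of them it started at base 1 or 2, as in miR-103, miR-107 and, one base further in, miR-16, whose target is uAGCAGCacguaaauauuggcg with the motif in capitals. In miR-191 it started at base 16, outside the seed.

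All 7 reference probes were well above background on all 6 arrays, as were 104 of the 322 miRNA probes. A probe was counted as such when the median of its repeat spots, 4 for a 5S probe and 9 for a miRNA probe, lay more than 3 SD of the empty spots over their median. The empty-spot median was 214, 64.7 and 117 scanner units in sham replicates 1, 2 and 3 and 399, 242.5 and 261 units in the paced replicates, so it was higher on every paced array. The miRNA probes well above background numbered 126, 175 and 162 in the sham and 104, 158 and 136 in the paced replicates. The 104 probes used below are thus those of paced replicate 1, the array with the highest empty-spot median. The cardiac muscle miRNAs miR-1, miR-133a-3p and miR-499-5p were well above background on every array, and miR-208b on 5 arrays. The leukocyte miRNAs miR-142-3p and miR-142-5p, the liver miRNA miR-122 and the erythroid miRNA miR-144 were well above background on none. Another listed leukocyte miRNA, miR-223, was not on the array, so these probes do not stand for all leukocyte miRNAs. Of the other erythroid miRNAs, miR-451 was well above background on all arrays and miR-486 on 5. In paced animals miR-486 differed from sham by -0.70 on the log2 scale (limma, unadjusted p = 0.00299, adjusted p = 0.140). Smooth muscle miR-143-3p, well above background on all arrays, differed by -0.32 (limma, unadjusted p = 0.016, adjusted p = 0.328) and its partner miR-145-5p by -0.12 (limma, adjusted p = 0.717). Of the endothelial miRNAs, miR-126-3p, well above background on all arrays, differed by -0.02 (limma, adjusted p = 0.934) and miR-126-5p, well above background on none, by 0.37 (limma, unadjusted p = 0.024, adjusted p = 0.363). The part of these cell types in the values below was not tested.

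The scanner signal of miR-103, as the median of its 9 spots, was 4533, 2650 and 2708 units in sham replicates 1, 2 and 3 and 2615, 2990 and 2480 units in paced replicates 1, 2 and 3. That of miR-107 was 4255, 2498 and 2622 units in the sham and 2522, 2851 and 2398 units in the paced replicates. That of miR-191 was 4454, 2920 and 3107 units in the sham and 2505, 3198 and 2968 units in the paced replicates. For all 3 miRNAs sham replicate 1 was the brightest array, and otherwise the groups overlapped. The highest array exceeded the lowest by 1.83-fold for miR-103, 1.77-fold for miR-107 and 1.78-fold for miR-191.

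The 5S-4 signal, the median of 4 spots, was 54528, 48068 and 53166 units in the sham replicates and 44185, 51570 and 45253 units in the paced replicates, a range of only 1.23-fold. The range over arrays was 1.73-fold for 5S-1, 1.49-fold for 5S-2 and 1.87-fold for 5S-3, although the 4 probes read a single ribosomal RNA. The lowest signal of 5S-1, 5S-2, 5S-3 and 5S-4 was on paced replicate 1, which also had the highest empty-spot signal. On every array 5S-4 was the brightest of all probes, and its dimmest spot exceeded the brightest miRNA spot.

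Repeat spots of a probe usually varied little, with exceptions on 2 sham arrays. The SD over the 9 spots ranged from 0.05 to 0.12 on the log2 scale for miR-103 and from 0.06 to 0.14 for miR-107. For miR-191 it was at most 0.11 except on sham replicate 2, where a single spot at 1177 units gave an SD of 0.46. For 5S-1 it was at most 0.14 except on sham replicate 3, where it was 0.52. On that array the 5S spots of the outer columns of the chip were lower than those of the inner columns by a log2 difference of -0.61, against -0.14 to 0.04 on the other arrays. The spots by array show these dim spots of miR-191 on sham replicate 2 and of 5S on sham replicate 3.

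**Figure D1:**
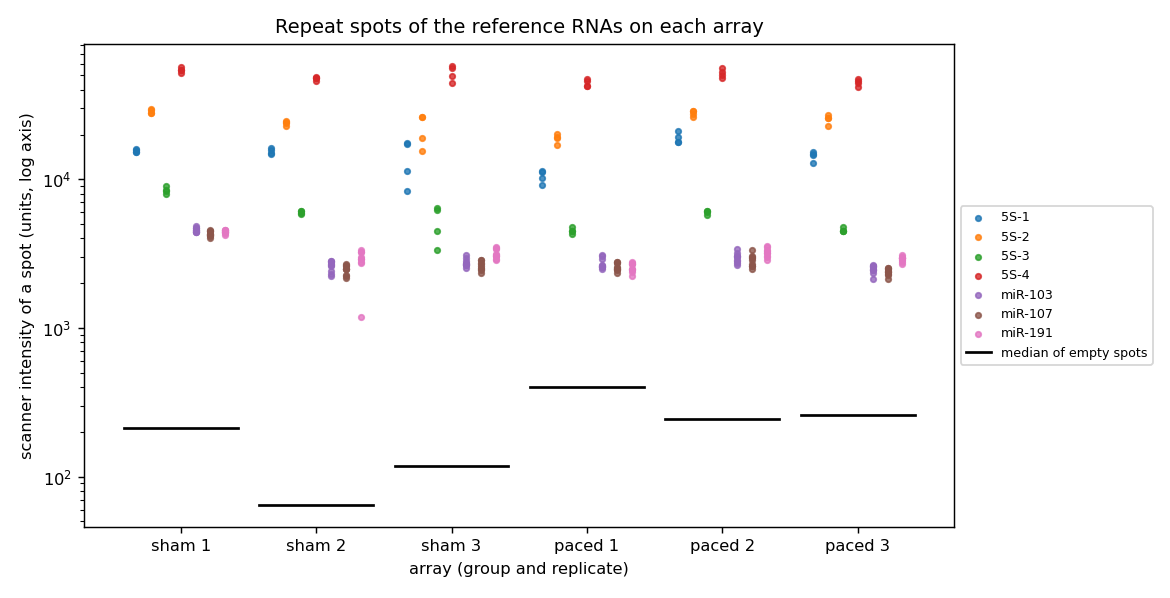
Scanner intensity (units, log axis) of each repeat spot of the 7 reference probes on the 6 arrays, 1 point per spot, with the median of the empty spots as a black line. All spots lie above the empty-spot line, which is higher on the paced (242.5 to 399 units) than on the sham arrays (64.7 to 214 units).

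After background correction and quantile normalization over the miRNA spots, miR-191 was at 11.45, 11.59 and 11.62 (log2) in sham replicates 1, 2 and 3 and at 11.52, 11.56 and 11.61 in paced replicates 1, 2 and 3. The groups overlapped, with means of 11.56 ± 0.09 in the sham and 11.56 ± 0.04 in the paced group (SD, 3 animals each). The difference of paced minus sham was 0.01 (SE 0.07, 95% interval -0.17 to 0.18; limma, adjusted p = 0.971). miR-103 was at 11.50, 11.50 and 11.42 in the sham and at 11.65, 11.45 and 11.38 in the paced replicates. Paced replicate 1 was the highest and paced replicate 3 the lowest of the 6 arrays for miR-103, on either side of the sham animals. The difference was 0.02 (SE 0.09, 95% interval -0.19 to 0.23; limma, adjusted p = 0.937). miR-107 was at 11.40, 11.41 and 11.34 in the sham and at 11.54, 11.38 and 11.30 in the paced replicates, with the 6 arrays in the same order as for miR-103. Its difference was also 0.02 (SE 0.08, 95% interval -0.17 to 0.21; limma, adjusted p = 0.921).

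Since 5S-4 was brighter than any miRNA spot, its normalized value was extrapolated by the shift at the brightest miRNA spot of the array. That spot was at 29264, 25794 and 29842 units in the sham and 19652, 27290 and 20895 units in the paced replicates. The normalized value of 5S-4 thus rests on 1 miRNA spot per array as well. Before scaling between arrays the groups overlapped for 5S-4, with a difference of -0.13. Normalized, 5S-4 was at 15.51, 15.50 and 15.41 in the sham replicates and at 15.80, 15.54 and 15.71 in the paced replicates. Every paced value lay above every sham value. The difference was 0.21 (SE 0.09, 95% interval 0.00 to 0.42; limma, unadjusted p = 0.0462, adjusted p = 0.456). 5S-2 was at 14.58, 14.51 and 14.20 in the sham and at 14.55, 14.64 and 14.89 in the paced replicates, with 1 paced value among the sham values and a difference of 0.26 (SE 0.13; limma, adjusted p = 0.482). Some 5S-2 spots were also brighter than any miRNA spot and so extrapolated, 1 of 4 on sham replicate 1, 1 on paced replicate 1, 3 on paced replicate 2 and all 4 on paced replicate 3, which has the highest 5S-2 value. 5S-1 was at 13.45, 14.02 and 13.54 in the sham and at 13.73, 14.11 and 13.94 in the paced replicates, which overlapped (difference 0.26, SE 0.17; limma, adjusted p = 0.611). 5S-3 was the only 5S probe with a negative difference. It was at 12.54, 12.62 and 12.26 in the sham and at 12.48, 12.42 and 12.22 in the paced replicates, a difference of -0.10 (SE 0.12; limma, adjusted p = 0.788).

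**Figure D2:**
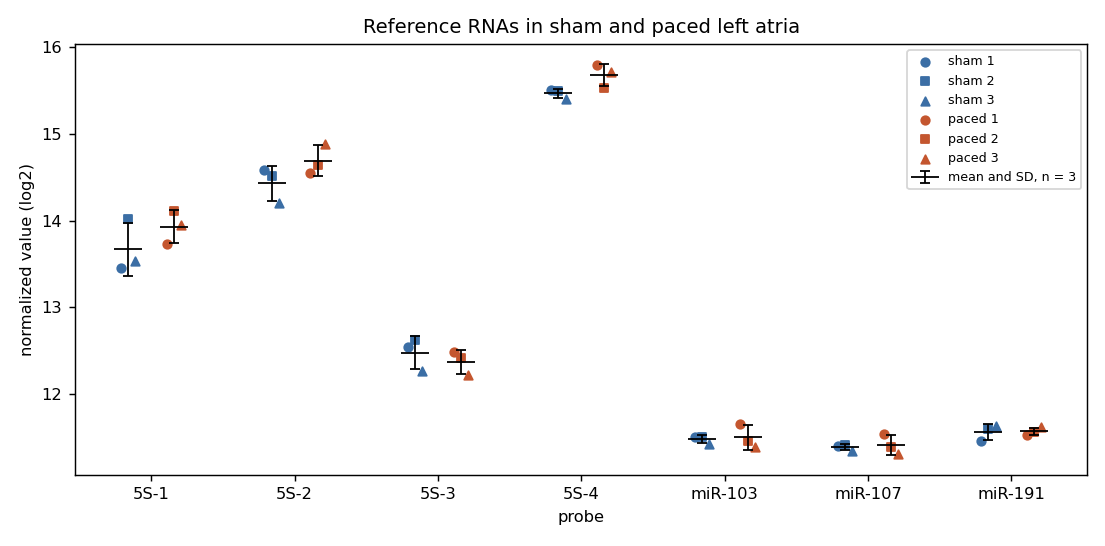
Quantile-normalized value (log2) of the 7 reference probes in the 3 sham and 3 paced LA, 1 point per animal, with the mean and SD (n = 3) in black. The groups overlap for every probe except 5S-4, where the paced animals lie between 15.54 and 15.80 and the sham animals between 15.41 and 15.51.

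No reference probe passed an adjusted threshold of 0.05 with limma or with the methods' t-test, and neither did any of the 326 probes with limma (0%). At the methods' unadjusted threshold limma called 1 of the 7, 5S-4, against 33 of 326 probes (10.1%). The groups did not overlap for 1 of the 7, against 57 of 326 probes (17.5%). Both shares of the reference probes are near those of the whole array. The call of 5S-4 was lost under the methods' t-test, with the authors' processed values, and with the 5S spots included in the quantile normalization, where the brightest probe of every array is set equal by construction. In each of these, 0 of the 7 were called. The shares over all probes under these settings are not given here, so the counts of 0 do not set the reference probes apart. Without normalization between arrays the differences were -0.31 for miR-103, -0.30 for miR-107, -0.29 for miR-191, -0.06 for 5S-1, -0.05 for 5S-2, -0.38 for 5S-3 and -0.13 for 5S-4, so the sign for 5S-1, 5S-2, 5S-4 and the miRNAs depends on the scaling. That of 5S-3 does too, at 0.023 when the arrays were scaled to the calibration spike probes.

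To read stability without any scaling between arrays, the log2 ratio of a reference RNA to each miRNA well above background was formed within each array. The mean SD of these ratios over the 6 arrays, M, is low for an RNA that moves with most of the others. Over the 104 miRNAs, M ranged from 0.206 to 0.539 with a median of 0.262. miR-191 had the lowest M, 0.206. It took rank 1 or 2 whichever array was left out, and rank 1 to 26 over 8 ways of processing, the highest rank being that with all miRNA probes as partners, dim ones included. let-7i followed at 0.210, miR-107 was at rank 13 with 0.224 and miR-103 at rank 16 with 0.229. Leaving out each array in turn gave rank 4 to 23 for miR-107 and 7 to 30 for miR-103, and the 8 ways of processing gave 10 to 33 and 15 to 39.

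5S was nearer the middle. The mean of the 4 probes had an M of 0.255, which would be rank 46 among the 104 miRNAs. Alone, 5S-3 had an M of 0.250 (rank 41), 5S-2 0.273 (rank 64), 5S-4 0.301 (rank 78) and 5S-1 0.338 (rank 92). The values of 5S depended on single sham arrays. Without sham replicate 1 M was 0.212 (rank 13) for the 5S mean, 0.212 (rank 13) for 5S-4, 0.229 (rank 23) for 5S-2 and 0.265 (rank 67) for 5S-1, all lower than with it, but 0.259 (rank 59) for 5S-3. For 5S-3 the lowest M, 0.215 (rank 7), was that without sham replicate 2. Without sham replicate 1 miR-107 was at rank 20 and miR-103 at rank 24, behind the 5S mean, so their order against 5S turned on that array. Within the paced animals alone the 5S mean would rank 5 and within the sham animals 88, whereas miR-103 was at rank 59 in paced and 7 in sham animals. miR-107 was at rank 52 in paced and 5 in sham animals, and miR-191 at rank 7 in paced and 13 in sham animals. Those ranks rest on 3 arrays each, and the difference between groups was not tested. With the inner 5S spots only, which was tried once the values had been seen, the 5S mean had an M of 0.281 (rank 68). With the authors' processed values the ranks were 30 for the 5S mean, 39 for miR-103, 31 for miR-107 and 7 for miR-191.

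**Figure D3:**
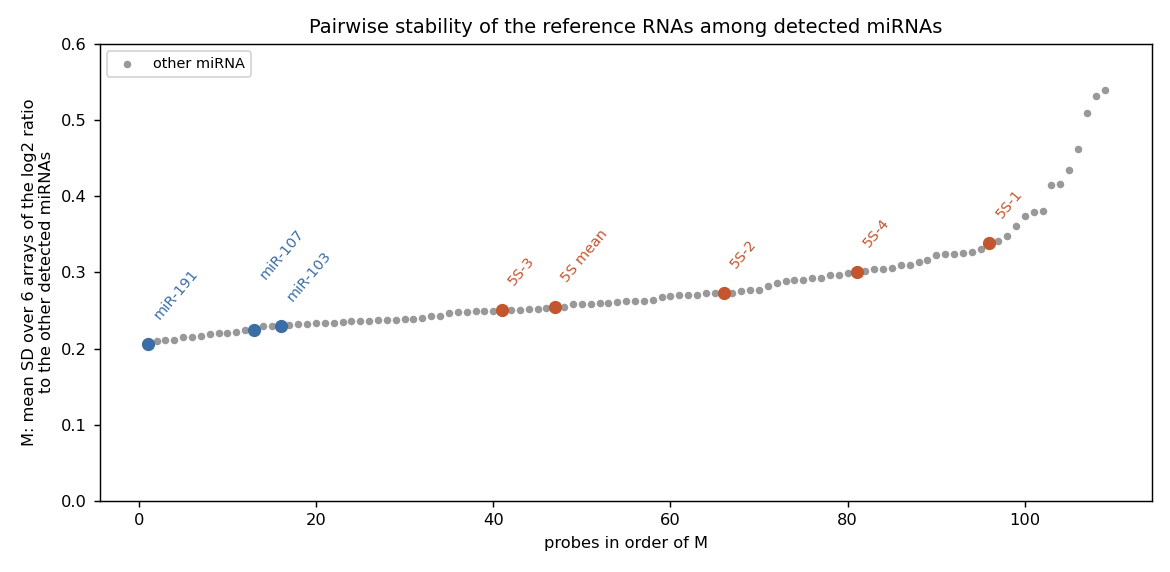
M, the mean SD over 6 arrays of the log2 ratio to the miRNAs well above background on all arrays, for these 104 miRNAs, the 4 5S probes and the mean of the 5S probes, in order of M. miR-191 lies lowest at 0.206, miR-107 and miR-103 at 0.224 and 0.229, and the 5S probes spread from 0.250 to 0.338.

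5S-4 had the smallest spread of the 7 before scaling, an SD of 0.12 over the 6 arrays on the log2 scale, against 0.24 to 0.36 for the other 6 probes. Its M was above the median of the detected miRNAs all the same. Among the 5S probes the fold range over arrays was narrower the brighter the probe, from 1.87-fold for 5S-3 to 1.23-fold for 5S-4, and whether the signal of 5S-4 was compressed near the top of the scale was not tested. The 4 5S probes also moved apart from each other. The SD over arrays of the log2 ratio between a pair of them was lowest for 5S-1 over 5S-2, at 0.13, and highest for 5S-1 over 5S-3, at 0.30. The log2 ratio of 5S-2 over 5S-3 was 1.77, 1.99 and 2.11 in the sham replicates and 2.11, 2.24 and 2.50 in the paced replicates. Every paced value lay above every sham value, though paced replicate 1 (2.112) was nearly level with sham replicate 3 (2.108). This ratio was picked after its values were seen and was not tested.

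The 6 ratios among 5S (the mean of its probes), miR-103, miR-107 and miR-191 were compared between groups with an exact permutation test (two-sided, 10 splits, smallest p possible 0.1). The log2 ratio of 5S over miR-191 was 2.27, 2.73 and 2.38 in the sham replicates and 2.55, 2.69 and 2.54 in the paced replicates. The paced values lay within the range of the sham values, of which sham replicate 2 was the highest and sham replicate 1 the lowest. The mean was higher by 0.14 in paced animals (exact permutation p = 0.5, adjusted p = 0.9). Over miR-103 the 5S ratio was 2.23, 2.80 and 2.58 in the sham and 2.45, 2.82 and 2.79 in the paced replicates, higher by 0.15 (exact permutation p = 0.6, adjusted p = 0.9). Over miR-107 it was higher by 0.14 (exact permutation p = 0.6, adjusted p = 0.9). Without sham replicate 1 these 2 differences were -0.0027 and -0.0083, and that of 5S over miR-191 was 0.042. The ratio of miR-191 over miR-103 was -0.04, 0.07 and 0.20 in the sham and -0.10, 0.12 and 0.25 in the paced replicates, a difference of 0.01 (exact permutation p = 1, adjusted p = 1). For miR-191 over miR-107 the difference was 0.0036 (exact permutation p = 1, adjusted p = 1). With 3 animals against 3 the test could not have called any of the 6 ratios, so these p values do not show that the ratios were equal.

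The ratio of miR-103 over miR-107 was nearly the same on every array, between 0.061 and 0.086 on the log2 scale. Its SD over the 6 arrays was 0.010, the lowest of all 5356 pairs among the 104 miRNAs, whose median was 0.261. The difference of paced minus sham was -0.0086 (exact permutation p = 0.4, adjusted p = 0.9). Among the 7 pairs of detected miRNAs that differ by a single base the SD ranged from 0.010 to 0.373. It was 0.039 for miR-17-5p and miR-20b, 0.068 for let-7a and let-7f, 0.190 for miR-100 and miR-99a and 0.373 for miR-27a and miR-27b-3p. Probes whose targets differ by 1 base may bind each other's miRNA, and how much of each signal came from the other miRNA was not tested. The values of the 2 probes are given separately but are not independent, here and wherever both are counted, ranked or averaged.

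**Figure D4:**
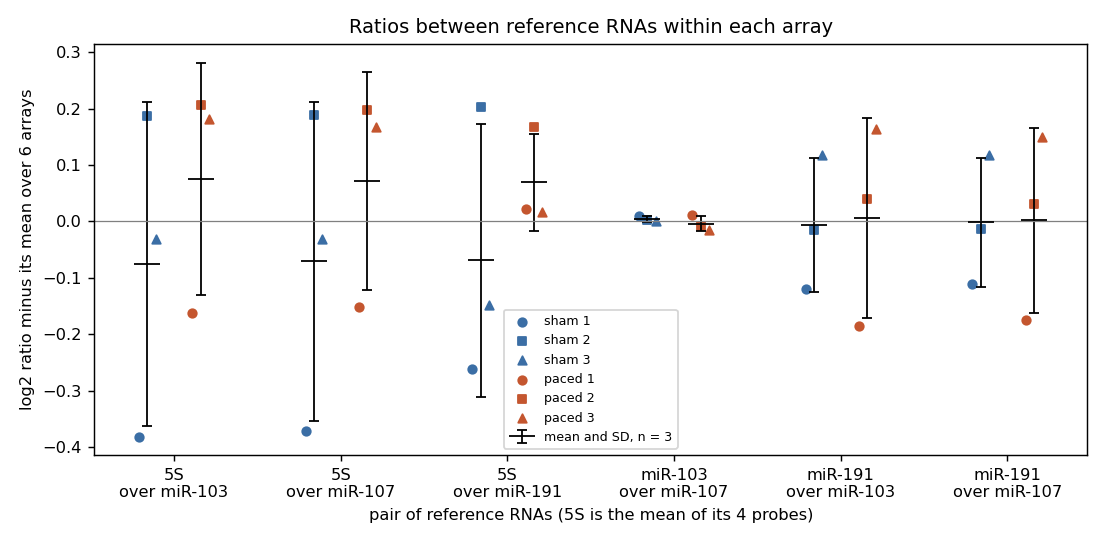
Log2 ratio between 2 reference RNAs on each array minus its mean over the 6 arrays, with the mean and SD of each group (n = 3) in black. miR-103 over miR-107 stays within 0.02 of its mean, while the ratios with 5S are lowest on sham replicate 1.

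The miRNAs closest to each reference RNA were taken as those with the lowest SD of the ratio over 6 arrays, as a description. For miR-191 they were let-7i (0.052), miR-99b (0.056) and let-7g (0.066). For miR-103 they were miR-107, miR-7134-3p (0.058) and miR-140-3p (0.075), and for miR-107 they were miR-103, miR-7134-3p (0.062) and miR-151-5p (0.072). For 5S they were miR-1306-5p (0.088), miR-125a (0.105) and miR-339 (0.124). The lowest SD was thus larger for 5S than for any of the reference miRNAs.

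Of 18 further miRNAs in use as normalizers, 17 were on the array and 15 were well above background throughout. Their M ranged from 0.210 for let-7i to 0.416 for miR-186, with a median of 0.260. Only let-7i (rank 2) and let-7g (0.224, rank 12) had a lower M than miR-107, while miR-423-5p (0.229, rank 15) and miR-16 (0.230, rank 17) were close to miR-103. Of the 17, 1 was called at the unadjusted threshold and 0 after adjustment, with a median difference of 0.00, against 32 of all 322 miRNA probes in the same fit and 0 after adjustment. That miRNA was miR-423-3p (difference 0.28; limma, adjusted p = 0.140), which was well above background on only 2 arrays. Of the 7 other miRNAs of the miR-15 and miR-107 family, 0 were called at the unadjusted threshold, beside 10.1% of the probes over the array, so the count does not set them apart. Their median difference was -0.06, against 0.00 over all miRNA probes. miR-16 had the lowest M of that group and miR-15a the highest, 0.380 (rank 96). miR-425-5p, from the locus of miR-191, had an M of 0.292 (rank 73) and a difference of -0.05 (limma, adjusted p = 0.911).

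The number of miRNA probes called over the array depended strongly on the reference. With quantile normalization, 34 of the 322 miRNA probes reached the unadjusted threshold in a fit of the miRNAs alone, 0 after adjustment, and the median difference was 0.00. When each array was scaled to its 5S mean, 119 were called, all higher in paced animals, with 8 after adjustment and a median difference of 0.43. With the 5S probes in the fit, 120 of 326 probes were called (36.8%). Scaled to the mean of miR-103, miR-107 and miR-191, to which the near-identical probes of miR-103 and miR-107 both contribute, 201 were called, 200 of them higher, with 200 after adjustment and a median difference of 0.57. With the 5S probes in the fit, 201 of 326 were called (61.7%). Scaled to miR-191 alone the count was 194, and 185 after adjustment. Scaled to the 11 calibration spike probes, also tried once the values had been seen, it was 209, and 206 after adjustment, with a median of 0.67, or 210 of 326 with the 5S probes in the fit (64.4%). With 5S scaling limma gave every reference probe the same SE, 0.27, and with the spike probes every one had 0.21. These SEs were pooled largely over probes and are not the spread of each probe. An error in the scaling of an array is shared by all its probes. The counts and p values under such scaling therefore do not rest on independent probes.

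Most of these calls were of probes not above background. Of the 143 miRNA probes well above background on no array, 102 were called with 5S and all 143 with the 3 reference miRNAs, with median differences of 0.59 and 0.74. The empty-spot signal was higher on every paced array, and its part in these calls was not tested. Among the 104 detected miRNAs, 1 was called with 5S scaling and 3 with the 3 reference miRNAs, of which 2 passed adjustment, against 4 with quantile normalization. With the spike probes 7 were called, of which 6 passed adjustment. The median difference of the detected miRNAs was -0.09 with 5S, 0.05 with the 3 reference miRNAs, 0.15 with the spike probes and -0.03 with quantile normalization. By construction, going from 5S to the 3 reference miRNAs moves every probe by the same amount, here 0.14, the size of the 5S to miRNA ratio differences given above.

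**Figure D5:**
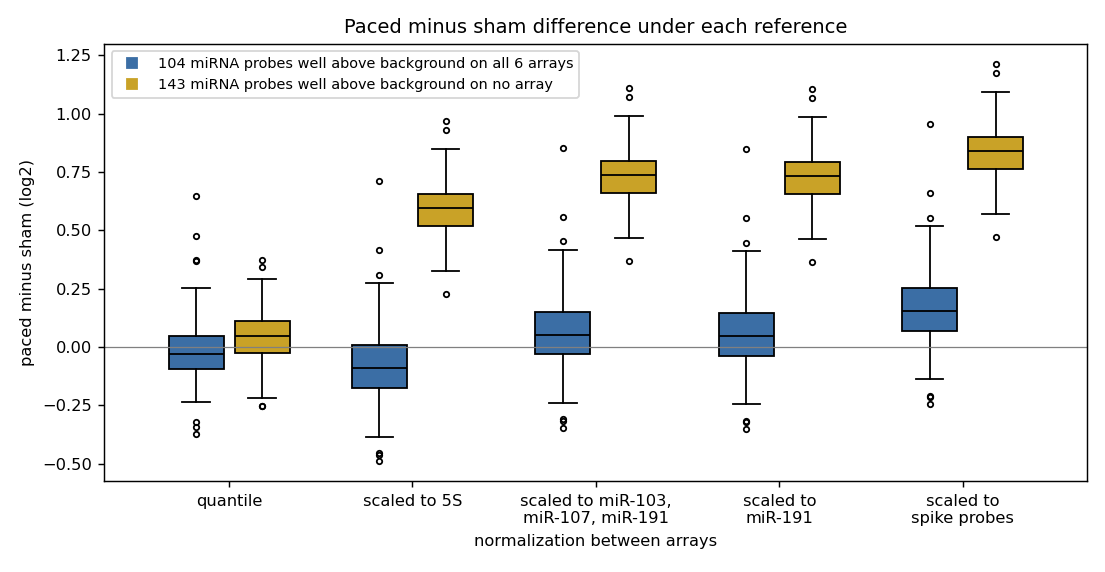
Difference of paced minus sham (log2) of the miRNA probes under 5 normalizations between arrays, for 104 probes well above background everywhere and 143 on no array. Boxes show quartiles with the median as a line and points beyond the whiskers (1.5 times the box height) are single probes. The median of the 143 dim probes is 0.05 with quantile normalization, 0.59 when scaled to 5S and 0.74 when scaled to the 3 reference miRNAs.

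Under these references the 10 miRNA probes of the study's qPCR that are on the array shifted as follows. With quantile normalization 0 of the 10 were called at the unadjusted threshold, beside 10.1% of the probes over the array, so the count does not set them apart. miR-21, a miRNA raised in cardiac stress, differed by 0.37 with quantile normalization, by 0.27 with 5S (limma, adjusted p = 0.486) and by 0.41 with the 3 reference miRNAs (limma, adjusted p = 0.120). The muscle miRNA miR-1 differed by 0.37, 0.20 and 0.34 under the same settings, with a limma adjusted p of 0.644 with 5S and 0.435 with the 3 reference miRNAs. miR-23a differed by 0.09, -0.11 and 0.03 and miR-24-3p by 0.12, 0.00 and 0.14, so that the sign for miR-23a turned with 5S. miR-23b was at -0.02, -0.18 and -0.04, and miR-133a-3p, enriched in muscle, went from 0.00 to -0.19 and -0.05. miR-133a-3p and miR-133b were the brightest miRNA probes, and quantile normalization sets the brightest spots of all arrays equal. Their differences with it were 0.004 and -0.004, so the 0.00 of miR-133a-3p was held near 0 by construction. miR-29a differed by 0.04, -0.04 and 0.11 and miR-133a-5p by -0.34, -0.45 and -0.31. For none of these 8 qPCR miRNAs, which leave out miR-133b, did limma give a call with 5S or with the 3 reference miRNAs. Scaled to the spike probes, miR-21 was called, with a difference of 0.51 (limma, unadjusted p = 0.020, adjusted p = 0.033), and the other 7 were not. Among the 104 detected miRNAs that scaling called 7, and 6 after adjustment. The SE of miR-21 was 0.22 with the spike probes and 0.28 with quantile normalization. Its quantile-normalized values were 12.28, 12.37 and 12.23 in the sham and 12.99, 11.95 and 13.05 in the paced replicates. Paced replicate 2 thus lay below every sham animal, and the M of miR-21 was 0.434 (rank 100). miR-10a-5p and miR-10b, well above background on 1 and 2 arrays, differed by 0.03 and 0.11 with quantile normalization, by 0.64 and 0.70 with 5S and by 0.78 and 0.84 with the 3 reference miRNAs. Both of the last values passed adjustment (limma, adjusted p = 0.00075 and 0.0017), and they were close to the median of the 143 dim probes given above.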

How the data were processed

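LA RNA of 3 sham and 3 paced pigs was measured on 1-colour pig miRNA arrays, 1 array per animal, and samples were grouped by the labels. The authors deposited scanner intensity values of each spot on a linear scale, neither background-corrected nor normalized, and a table of processed intensity values whose background and normalization steps are not given in the sources used here. The array files list neither slide nor scan date. Since the number of animals is small, it limits the precision.

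All 3968 spots (786 of them empty) were background-corrected with normexp, without a local background and with an offset of 50 (limma 3.58.1, R 4.3.3). The miRNA spots were quantile-normalized and averaged per probe as log2 values. The 5S spots, being controls, were placed on the quantile curve of their array. Groups were compared by lmFit and eBayes over 326 probes with Benjamini-Hochberg adjustment. M and the pair ratios used the log2 values before normalization between arrays. The processing was tested on simulated data.

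The members and lists were chosen with earlier results of these data known. Besides the reference probes, the miRNAs named are the 3 closest in ratio to each reference RNA and those of lists (qPCR targets, other normalizers, the miR-15 and miR-107 family, the miR-191 locus and tissue markers). The miRNA pairs that differ by 1 base were chosen after the data were examined. Alternatives covered background, normalization, repeat spots, the authors' values, a filter on dim probes, the methods' t-test, limma with a trend, the replicate number as a block and each animal left out. Plots were made in matplotlib 3.10.9 under Python 3.11.15.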

Additional observations from a re-analysis of the deposited data

How the results depend on the processing

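Over the alternatives run, 0 of the 7 reference probes passed adjustment. The exact permutation test of the ratios cannot go below 0.1 with 3 animals against 3, so no ratio could be called under any setting. At the unadjusted threshold the count of 1 became 2 with cyclic loess. It stayed at 1 without background correction, with plain subtraction, with the replicate block and with the inner 5S spots only. Under the other settings it was 0. Leaving out an animal gave 0 to 1. The cause of these changes was not tested. Over the array 31 miRNA probes were called without background correction and 32 with plain subtraction. The share over all probes with cyclic loess is not given here, so the count of 2 does not set the reference probes apart. The median M of the 7 probes (0.250) became 0.362 with all miRNA probes as partners and 0.229 to 0.260 with an animal left out, and the median SD of the quantile-normalized value was 0.146.

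Differences of the reference miRNAs were near 0 and turned sign easily. For miR-103, miR-107 and miR-191 in that order they were -0.31, -0.30 and -0.29 without normalization between arrays, -0.027, -0.021 and -0.012 with cyclic loess, -0.14, -0.13 and -0.13 when scaled to the median of the detected miRNAs, -0.15, -0.14 and -0.14 when scaled to 5S, -0.17, -0.16 and -0.16 when scaled to 5S-4, and -0.040, -0.037 and -0.072 with the authors' processed values. Scaled to the 3 reference miRNAs the difference of miR-103 was -0.0069. Scaled to miR-191 it was -0.012, and that of miR-107 was -0.0036. With the median of the repeat spots miR-103 was at -0.015 and miR-191 at -0.021. Leaving out an animal gave -0.058 to 0.075 for miR-103, -0.040 to 0.072 for miR-107 and -0.055 to 0.035 for miR-191. Without normalization between arrays 5S-1 was at -0.062, 5S-2 at -0.049 and 5S-4 at -0.13. Scaled to the spike probes 5S-3 was at 0.023.

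The log2 ratio of miR-191 over miR-107 became -0.0029 without background correction, -0.018 with the median of the repeat spots and -0.034 with the authors' processed values. That of miR-191 over miR-103 became -0.0032 and -0.031 under the last 2. Leaving out an animal gave -0.0027 to 0.28 for 5S over miR-103, -0.0083 to 0.27 for 5S over miR-107, 0.04 to 0.27 for 5S over miR-191, -0.02 to -0.0033 for miR-103 over miR-107, -0.067 to 0.11 for miR-191 over miR-103 and -0.070 to 0.092 for miR-191 over miR-107.

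Of the 322 miRNA probes, 34 were called unadjusted and 0 after adjustment. The counts were 15 and 0 without normalization between arrays, 181 and 171 when scaled to the median of the detected miRNAs, 119 and 8 when scaled to 5S, 97 and 1 when scaled to 5S-4, 201 and 200 when scaled to the 3 reference miRNAs, 203 and 198 when scaled to miR-103, 194 and 185 when scaled to miR-191, and 209 and 206 when scaled to the spike probes. The filter on dim probes left 5 and 0, from fewer probes tested. Leaving out an animal gave 19 to 67 unadjusted and 0 to 9 after adjustment, the highest counts being those without paced replicate 1. Scaling to the spike probes, to 5S-4 or to miR-103 and the inner 5S spots were added after the data were examined. The counts with 5S and spike scaling rest on SEs pooled largely over probes, as given above.

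Samples with the same replicate number in both groups did not deviate together (correlations of 0.17, -0.01 and 0.21 over 104 miRNAs), so the numbers were not taken as pairs. With the replicate block 1 of the 7 reference probes and 33 miRNA probes were called unadjusted, and 0 of either after adjustment.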
